A study of Mus musculus with 37 samples.

Results

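Oct4-lowered intergenic sites are the open chromatin regions between genes that were absent from the 4-cell list, appeared in the list of mouse 8-cell embryos, and had less DNase I signal after knockdown of Oct4. They were selected on the deposited values of 4 libraries, as the regions of the authors' table of decreased 8-cell-gained sites whose exact coordinates carry the authors' class Intergenic in the 8-cell list. There were 952 of them, out of 2643 sites in the decreased table, 9635 sites gained at the 8-cell stage and 22621 sites in any of the 5 stage lists. The table therefore chose them by the very fall that its values show, and the knockdown values below are given as a description, without a test.

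Oct4, encoded by Pou5f1, is a POU-domain transcription factor that binds an octamer motif in DNA, often next to Sox2, and can bind sites within nucleosomes. It is required for the inner cell mass of the blastocyst and for the pluripotency of embryonic stem cells. Much of its binding in stem cells lies at enhancers far from promoters. Sites where chromatin is open are cut readily by DNase I and are called DNase I hypersensitive sites, and those between genes are often enhancers, insulators or repeats with regulatory activity. The 8-cell stage, just before compaction and the first lineage choices, is when many such distal sites are first seen in mouse embryos.

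The study measured open chromatin with a DNase-seq protocol for small inputs in 32 of its 37 samples, from gametes to the morula. The groups used here are 8-cell embryos given siRNA against Oct4 (Oct4-KD, with siOct4 numbered 1 and 2 as the library is) and 8-cell embryos given a control siRNA (siControl). Whether these numbers mark different siRNAs or only replicates is not known here, and siRNA and library cannot be told apart. Each group had 2 libraries of 25 embryos, collected 60 h after in vitro fertilization of BDF1 oocytes with BDF1 sperm, and all had their polar bodies removed. The site lists came from other embryos without siRNA. These had BDF1 oocytes and, by the strain labels, JF1 sperm, and were collected at the 1-cell (12 h), 2-cell (30 h), 4-cell (46 h), 8-cell (60 h) and morula (78 h) stages. Further lists came from BDF1 oocytes of 14-day-old females, BDF1 sperm, and maternal and paternal pronuclei isolated at the zygote stages PN3 (7.5 h) and PN5 (12 h), whose strain label is BDF1. The growth protocol, which is the same for all samples, names JF1 sperm, except for 1-cell embryos, where it names BDF1 sperm, and so differs from some of the strain labels. There is 1 list per group, and every library pooled its embryos, cells or pronuclei. RNA and protein of the 8-cell embryos were not analysed here, so the remaining level of Oct4 is not known, and no label says that libraries of a group came from separate mothers or fertilizations. Positions are on mm9, and no sequence of the sites and no nearest gene is given, because a genome of that build was not used here.

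Of the 3095 intergenic sites gained at the 8-cell stage, 952 were in the decreased table (30.8%, exact Clopper-Pearson 95% confidence interval 29.1 to 32.4), against 27.4% of all gained sites. The share was 22.7% for promoters (21.5 to 24.0), 32.2% for introns (30.1 to 34.4) and 29.8% for exons (25.5 to 34.3), so the interval for promoters lay below that for intergenic sites and those for introns and exons overlapped it. Intergenic sites thereby made up 36.0% of the lowered sites and 32.1% of all gained sites. Among sites 150 bp wide, the narrowest in the lists, 35.0% of intergenic and 28.9% of promoter sites were lowered. Among those of 300 bp and over, 24.1% of intergenic and 22.1% of promoter sites were. Since the table chose the sites, these shares describe it and carry no test, and intervals here and below cover counting error only.

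Few reads stood behind each site. The values of the table are RPM, the number of reads in a site per 1000000 reads of its library, and each is a whole multiple of the value of 1 read, from which library sizes of 6690000 and 6920000 reads for Oct4-KD 1 and 2, and of 8220000 and 6750000 reads for siControl 1 and 2, were recovered. In Oct4-KD 1 the lowest, median and highest member had 0, 1 and 12 reads, and in Oct4-KD 2 they had 0, 1 and 13. In siControl 1 they had 0, 6 and 37 reads, and in siControl 2 they had 0, 2 and 19. The siControl 1 library thus stood apart from siControl 2, and the range of siControl 2 lay nearer to that of the Oct4-KD libraries. With both libraries of a group added, the median member had 2 reads in Oct4-KD and 9 reads in siControl. There were 97 members with 3 or fewer reads in siControl, 13 of them with a single read.

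**Figure D1:**
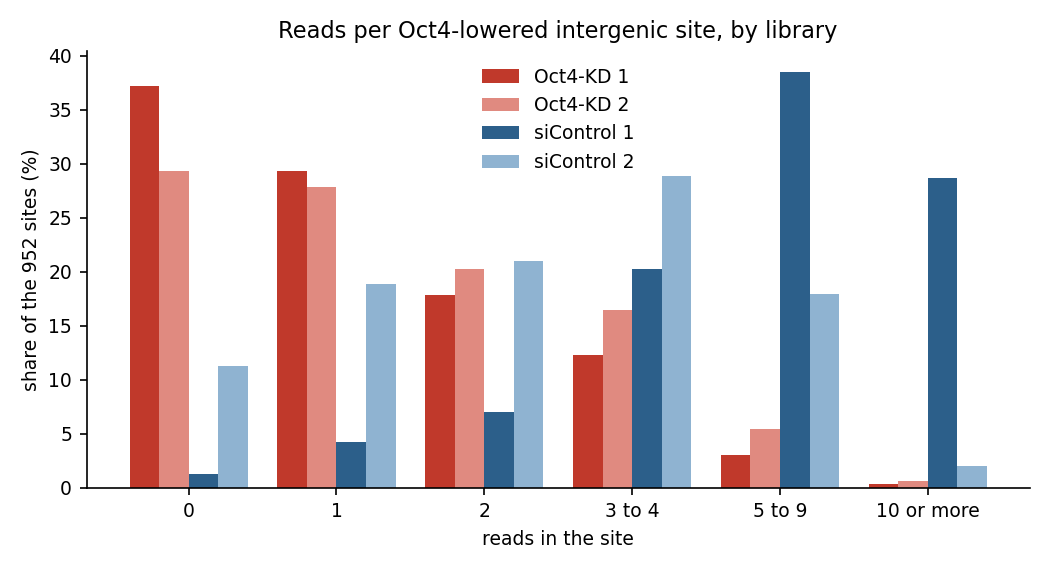
Share of the 952 Oct4-lowered intergenic sites (y axis, percent) by the number of reads in the site (x axis), with 1 bar for each of the 4 libraries. In Oct4-KD 1 and 2, 37.2% and 29.3% of sites had no read, against 1.26% in siControl 1 and 11.2% in siControl 2, and sites of 10 or more reads were mostly in siControl 1.

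The distribution of reads shows the same order of libraries. No read was found for 354 members in Oct4-KD 1 and for 279 in Oct4-KD 2, against 12 in siControl 1 and 107 in siControl 2. Sites with 10 or more reads numbered 3 and 6 in the Oct4-KD libraries, 273 in siControl 1 and 19 in siControl 2. In all, 121 members had no read in either Oct4-KD library, 391 had reads in 1 of them and 440 in both.

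Summed over all members, the signal in Oct4-KD embryos was 31.2% of that in siControl embryos, and the siControl libraries differed from each other more than the Oct4-KD libraries did. The summed level was 180 RPM in Oct4-KD 1 and 223 RPM in Oct4-KD 2 (201 ± 29.8, SD, n = 2), against 876 RPM in siControl 1 and 416 RPM in siControl 2 (646 ± 325, SD, n = 2). Both Oct4-KD sums lay below both siControl sums, as the choice of sites makes them. The median member kept 30.0% of its siControl level (quartiles 19 and 40.6), against 33.1% over the whole table. With the 121 sites without an Oct4-KD read set to the 3 reads that a count of 0 allows over the group, the median was 35.7%. On the log2(RPM + 0.1) scale, which understates changes at low levels, the median fold of Oct4-KD over siControl was -1.26 among members and -1.23 over the table.

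Both Oct4-KD libraries lay below both siControl libraries at 575 members (60.4%), close to the 61.9% of all sites in the table. At the other 377 members the RPM of the groups overlapped or tied. In RPM, 1 read is 0.145 in Oct4-KD 2, 0.148 in siControl 2 and 0.149 in Oct4-KD 1. Equal read numbers above 0 in Oct4-KD 2 and siControl 2 therefore count as lower in Oct4-KD 2. Some of the 575 members hold such ties in reads, and how many was not counted here. Pairwise, Oct4-KD 1 was below siControl 1 at 926 members (97.3%; 97.8% of the table) and Oct4-KD 2 below siControl 1 at 925 (97.2%; 97.5% of the table). Against siControl 2, Oct4-KD 1 was lower at 677 (71.1%; 72.0% of the table) and Oct4-KD 2 at 751 (78.9%; 80.5% of the table). Ties in reads above 0 count as not lower for Oct4-KD 1 and as lower for Oct4-KD 2, so these counts cannot be set against each other.

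Agreement within a group was weak. Across members, the Pearson correlation of RPM was 0.33 between the Oct4-KD libraries and 0.42 between the siControl libraries. Between libraries of different groups it was higher, at 0.51 to 0.67. The sites were chosen by the ratio of the group means, and the parts of that choice and of low read numbers in these correlations were not tested. Across members, the log2 ratio of Oct4-KD 1 over Oct4-KD 2 had a median of 0.00 and an SD of 1.26, and that of siControl 1 over siControl 2 had a median of 0.93 and an SD of 1.15. siControl 1 was above siControl 2 at 792 members (83.2%), and Oct4-KD 1 was above Oct4-KD 2 at 407 (42.8%). Between these pooled samples, fewer cells with an open site and less opening in each cell cannot be told apart.

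How far the fall reached depended on which siControl library it was set against. In the authors' deposited table the log2 fold, given as siControl over Oct4-KD with 0.01 RPM added, was at least 1.001, and the members ran to 6.347, so a value of 1 was taken as its threshold. With siControl 1 left out, 397 members stayed past that threshold (41.7%, 38.5 to 44.9), against 42% of the whole table. In that setting 179 members were not lower in Oct4-KD at all (18.8%; 17.8% of the table). The summed level in Oct4-KD was then 48.4% of that in siControl 2, and the median log2 fold was -0.70. With siControl 2 left out, 899 members stayed (94.4%; 94% of the table), the sum was 23.0% and the median log2 fold was -1.65. Leaving out Oct4-KD 1 kept 706 members (74.2%; 74.3% of the table) and leaving out Oct4-KD 2 kept 799 (83.9%; 82% of the table). Within libraries numbered 1, 852 members passed (89.5%; 88.8% of the table), within those numbered 2, 419 passed (44.0%; 44.4% of the table), and 319 passed within both (33.5%; 33.2% of the table). In each of these settings the members' share lay within 2 percentage points of the table's. The siControl 1 library was also the largest of the 4, and the part of library size in these values was not tested.

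**Figure D2:**
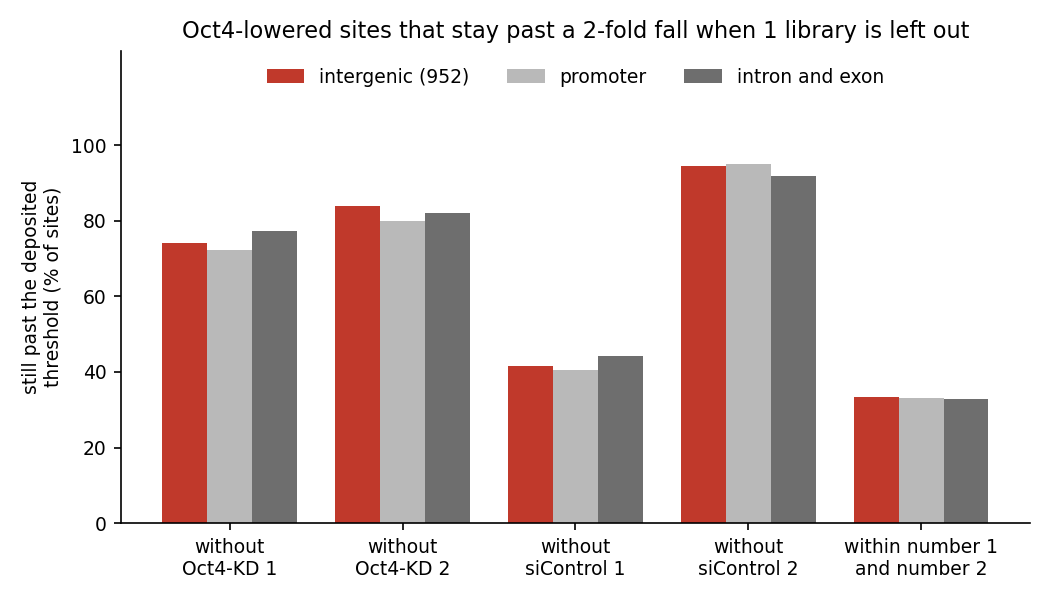
Percent of Oct4-lowered sites that stayed past the deposited threshold (y axis) when 1 library was left out, and within both library numbers (x axis), for the 952 intergenic members, 971 promoter sites and 720 intron and exon sites. Of the members, 41.7% stayed without siControl 1 and 94.4% without siControl 2, and the other classes had like shares.

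The members with the most signal kept part of it. The highest mean siControl level was at chr13:44773601-44773910, with 1.195 and 1.879 RPM in Oct4-KD 1 and 2, against 4.502 and 1.927 RPM in siControl 1 and 2. Oct4-KD 2 and siControl 2 had 13 reads each there, so their RPM differed only by library size. The gap between the groups came mostly from siControl 1. At chr19:44322721-44322930 the values were 1.644 and 1.445 RPM in Oct4-KD, against 3.407 and 2.816 RPM in siControl, so that both groups were tight and apart. This site also overlapped the paternal lists of PN3 and PN5.

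A wide site at chr9:65043501-65043970 had 0.448 and 1.445 RPM in Oct4-KD, against 3.285 and 2.372 RPM in siControl. Another site of the same chromosome, chr9:114894921-114895210, had 1.793 and 0.723 RPM in Oct4-KD, against 3.407 and 1.927 RPM in siControl. Their Oct4-KD libraries stood apart from each other in opposite directions, yet both lay below both siControl libraries. The groups overlapped at chr11:3996641-3996850, with 1.046 and 1.301 RPM in Oct4-KD, against 3.894 and 0.889 RPM in siControl. They also overlapped at chr17:80882361-80882550, with 0.299 and 1.59 RPM in Oct4-KD, against 3.164 and 1.334 RPM in siControl. In both cases an Oct4-KD value was above siControl 2. The values at chr5:31189781-31189990 were 0.598 and 1.445 RPM in Oct4-KD, against 2.555 and 1.927 RPM in siControl. Those at chr6:125383701-125384090 were 0.598 and 1.156 RPM in Oct4-KD, against 2.19 and 2.075 RPM in siControl, where the siControl libraries met. All 8 of these sites were in the morula list.

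**Figure D3:**
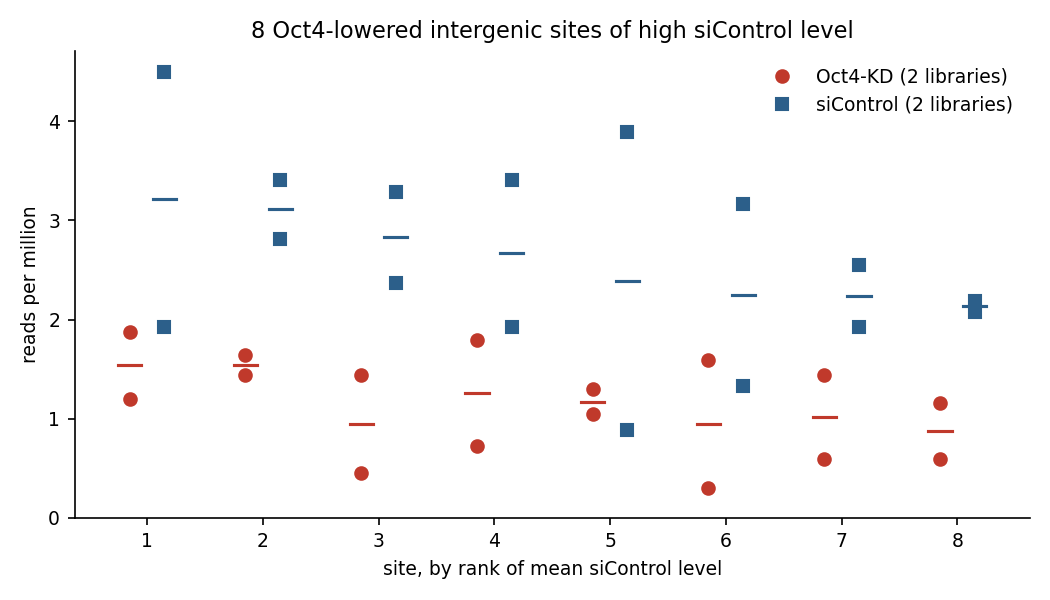
Level in RPM (y axis) of the 8 members with the highest mean siControl level (x axis, by rank), with a point for each Oct4-KD and siControl library and a line at each group's mean. At 6 of the 8 sites both Oct4-KD points lie below both siControl points, and siControl 1 is the highest point at each site. The 6 include the site of rank 1, where Oct4-KD 2 and siControl 2 had 13 reads each and differ only by library size.

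At the other end, 121 members had no Oct4-KD read, and the largest deposited fall among sites without such a read, by its siControl level, was at chr19:30264401-30264750. It had 0 RPM in both Oct4-KD libraries, against 1.46 and 0.148 RPM in siControl. The level is 3.65-fold lower when 3 reads over the Oct4-KD group are taken as the floor and the siControl level as exact. With counting error in both groups, the exact interval for the level left in Oct4-KD reached up to 36.1% of siControl, a weaker bound. The signal of that site in siControl was almost all in siControl 1. At chr8:11483001-11483210 the siControl values were 1.095 and 0.445 RPM. The level in Oct4-KD was 3.49-fold lower by that floor, and the interval reached up to 39.6% left. At chr5:118885341-118885590 the siControl values were 0.852 and 0.593 RPM, with a 3.28-fold lower level in Oct4-KD by the floor. At chr5:137423881-137424030 they were 0.973 and 0.445 RPM, with a 3.22-fold lower level by the floor. The interval reached up to 43.8% left at each of these sites on chromosome 5. These sites on chromosomes 8 and 5 had signal in both siControl libraries. At chr3:36147481-36147630 the siControl values were 1.46 and 0 RPM, so that its fall rested on siControl 1 alone. The level there was 3.31-fold lower by the floor, and the interval reached up to 39.6% left. The highest log2 fold among members in the authors' deposited table, 6.347, comes from the 0.01 RPM added to a level of 0. The whole table ran to 6.862.

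Just inside the threshold, chr4:140246961-140247210 had 0.149 and 0.867 RPM in Oct4-KD, against 1.46 and 0.593 RPM in siControl, and a fold of 1.001 in the authors' deposited table. At chr5:115615961-115616170 the values were 0.448 and 0.723 RPM in Oct4-KD, against 2.069 and 0.296 RPM in siControl, and the fold was 1.002. The groups overlapped at both. At chr4:127042661-127043050, with 0.448 and 0.289 RPM in Oct4-KD against 0.608 and 0.889 RPM in siControl, they did not, and the fold was 1.003. By the log2 fold of the authors' deposited table, 88 members were under 1.1, 324 had 2 or more and 130 had 3 or more. Sites just outside the threshold were not analysed here.

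Single libraries could carry a site. At chr7:38814221-38814510 the values were 0.448 and 0.434 RPM in Oct4-KD, against 2.434 and 0 RPM in siControl. The site chr14:48192421-48192710 had 0.448 and 0.145 RPM in Oct4-KD, against 2.312 and 0.148 RPM in siControl. The siControl 2 library lay below both Oct4-KD libraries at the first site. At the other it had 1 read, as Oct4-KD 2 did, and lay below Oct4-KD 1. At both sites siControl 1 set the group mean.

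The morula list held a smaller share of the members than of other intergenic gained sites. Presence in another list was not used to choose them. Of the members, 456 had the same coordinates in the morula list (47.9%, 44.7 to 51.1), against 1239 of the 2143 intergenic gained sites outside the decreased table (57.8%, 55.7 to 59.9). The intervals do not overlap, but no test of the difference was run, because each stage has 1 list. Pooled over all classes, 62.7% of the whole decreased table and 72.5% of all gained sites not lowered were in the morula list. The class mix of these sets differed, with promoters at 36.7% of lowered sites and 44.3% of all gained sites. Gaps within promoters or within introns and exons were not analysed here. Of lowered promoters 85.3% were in the morula list, and of lowered sites in introns and exons 51.7%. The 496 members not in the morula list had a median of 1 read in Oct4-KD and 7 in siControl, and the 456 in it had 3 and 13. Their median widths were 170 and 230 bp.

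Site width moved with presence in the morula and with the size of the gap. At 150 bp, 43 of 249 members were in the morula list (17.3%), against 72 of 463 sites not lowered (15.6%). Between 160 and 190 bp the shares were 47.1% of members (39.9 to 54.5) and 64.7% of sites not lowered (60.1 to 69.1). Between 200 and 240 bp they were 57.9% (51.0 to 64.5) and 67.1% (62.4 to 71.5), and between 250 and 290 bp they were 55.2% (47.9 to 62.4) and 63.8% (59.2 to 68.1). From 300 to 390 bp, 86.7% of members and 85.1% of the others were in the list, and at 400 bp and over 14 of 14 members and 86 of 92 of the others were. The members' share was the lower one from 160 to 290 bp, with intervals apart at 160 to 190 bp and overlapping at 200 to 290 bp.

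Signal moved with it as well. Among members with under 10 siControl reads, 150 of 495 were in the morula list (30.3%), among those with 10 to 19 reads 226 of 369 (61.2%), and among those with 20 or more 80 of 88 (90.9%). Within the middle range, where siControl reads were alike, the share was 52.3% of members that kept under 25% of their siControl level, 64.1% of those that kept 25 to 40% and 66.2% of those that kept more, with intervals of 42.6 to 61.8, 55.1 to 72.3 and 57.3 to 74.2 that all overlap. Among members of fewer than 10 reads these shares were 25.7%, 30.6% and 42.4%, and among those of 20 or more they were 88.9%, 92.1% and 90.6%, again with overlapping intervals. Reads of the sites outside the decreased table were not analysed here, so the part of signal in the difference between members and other intergenic sites was not tested.

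The members that held past the threshold without siControl 1 gave a like share. Of these 397, 44.6% were in the morula list (39.6 to 49.6), against 50.3% of the other 555 (46.0 to 54.5). Of the 319 that passed within both library numbers, 45.8% were (40.2 to 51.4), against 49.0% of the other 633 (45.0 to 52.9). All of these intervals overlap that of the members as a whole.

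**Figure D4:**
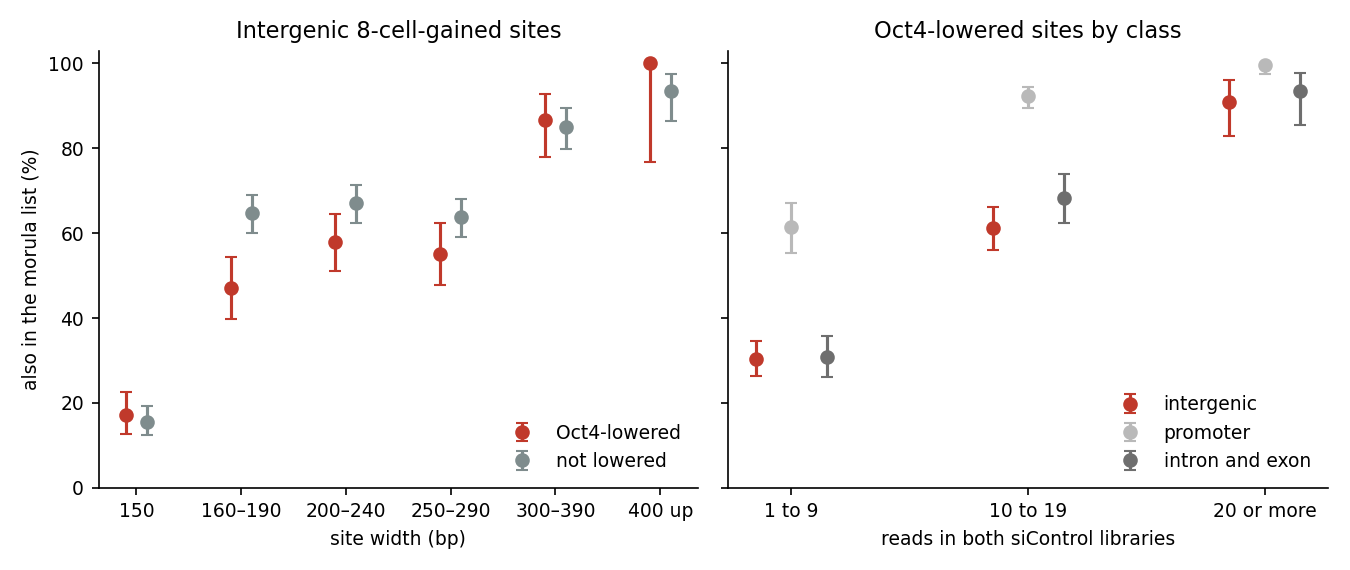
Percent of intergenic gained sites that were also in the morula list (y axis) by site width in bp, for members and for sites not lowered (left), and of all Oct4-lowered sites by the number of siControl reads and class (right), with exact 95% intervals. The share of members lay below that of the other sites between 160 and 290 bp, and the share of intergenic members went up with reads, at 30.3%, 61.2% and 90.9%.

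Few of the members were listed as open in gametes or pronuclei. Of the members, 69 overlapped a site of the oocyte, sperm or pronuclear lists by at least 1 bp (7.25%, 5.68 to 9.08), against 262 of the intergenic gained sites not lowered (12.2%, 10.9 to 13.7). These intervals do not overlap, but at widths of 200 bp and over they do, with 9.38% of members (6.99 to 12.2) and 13.7% of the others (11.8 to 15.7), and no test was run. Pooled over all classes, whose mix differed between the sets, the overlap was 16.6% in the decreased table and 27.7% in gained sites not lowered. Sperm gave 0 of the 952 members, where the exact interval reaches up to 0.387%, against 3 of the others, and its list is short, with 87 sites. The oocyte list held 2 members (0.210%, 0.0255 to 0.757) and 13 of the others (0.607%, 0.323 to 1.04). Maternal PN3 pronuclei shared 22 members (2.31%, 1.45 to 3.48) and 6.53% of the others (5.52 to 7.66), and paternal PN3 pronuclei shared 31 members (3.26%, 2.22 to 4.59) and 5.74% of the others (4.79 to 6.81). At PN5, maternal pronuclei shared 43 members (4.52%, 3.29 to 6.04) and 7.47% of the others (6.39 to 8.66), and paternal pronuclei shared 23 members (2.42%, 1.54 to 3.60) and 4.06% of the others (3.26 to 4.98). The intervals thus lay apart for maternal PN3, paternal PN3 and maternal PN5 pronuclei, and overlapped for the oocyte and paternal PN5. By parent, 29 members overlapped maternal lists alone, 17 paternal lists alone and 23 both.

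**Figure D5:**
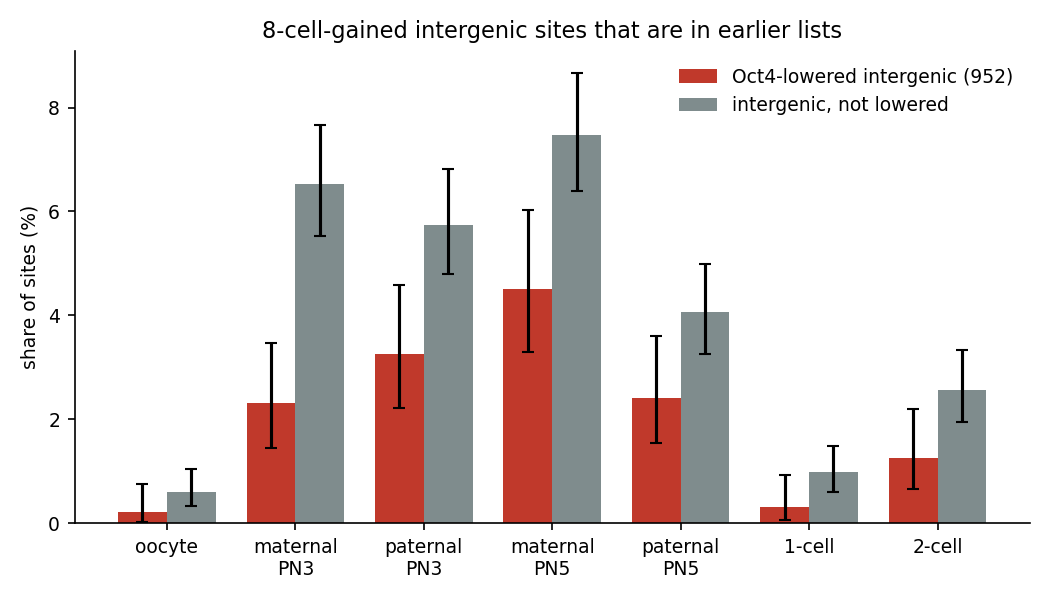
Percent of members and of intergenic gained sites not lowered (y axis) that were in the oocyte, pronuclear, 1-cell and 2-cell lists (x axis), with exact 95% intervals. Members had the lower share in each of the 7 lists, with 4.52% in maternal PN5 pronuclei as their highest, and the intervals overlap in 4 of the 7 (oocyte, paternal PN5, 1-cell and 2-cell).

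The members with a pronuclear overlap had higher levels at the 8-cell stage and a higher share in the morula list, with no test of either. Their median siControl level was 1.07 RPM, against 0.574 RPM at the other 883 members, and they kept a median of 35.7% in Oct4-KD, against 29.6%. Of the 69, 61 were in the morula list (88.4%, 78.4 to 94.9), against 395 of the 883 (44.7%, 41.4 to 48.1). Among intergenic sites not lowered, 93.1% of those with a pronuclear overlap and 53.0% of those without were in it.

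In all, 4 members lay in every one of the 4 pronuclear lists, and each was in the morula list. At chr5:44662821-44663190 the values were 0.149 and 0.289 RPM in Oct4-KD, against 1.46 and 0.445 RPM in siControl. At chr1:166948921-166949130 they were 0.299 and 0.145 RPM in Oct4-KD, against 0.73 and 0.741 RPM in siControl, where the siControl libraries were close and the Oct4-KD libraries had 2 reads and 1 read. The site chr9:22818681-22818890 had 0.149 and 0.434 RPM in Oct4-KD, against 0.73 and 0.593 RPM in siControl, and was in the 1-cell list too. The site chr11:87660561-87660770 had 0.149 and 0 RPM in Oct4-KD, against 0.365 and 0.741 RPM in siControl. At each of the 4, both Oct4-KD libraries lay below both siControl libraries. The oocyte list joined maternal PN3, paternal PN3 and maternal PN5 at chr4:124959761-124959970, which had 0.448 and 0.867 RPM in Oct4-KD, against 2.799 and 1.038 RPM in siControl.

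A few members had been listed at the 1-cell or 2-cell stage and were absent from the 4-cell list. There were 3 in the 1-cell and 12 in the 2-cell list, 15 in all (1.58%, 0.884 to 2.59), against 70 of the sites not lowered (3.27%, 2.56 to 4.11), and these intervals overlap. The X chromosome held 9 of the 15, and 29 of the 70 sites not lowered (41.4%). Those 9 members each had 1 to 5 reads over the siControl libraries. Autosomal ones named for comparison are chr16:5265701-5266110, with 0 and 0.289 RPM in Oct4-KD, against 1.582 and 0.445 RPM in siControl, and chr8:114204401-114204810, with 0.448 and 0.723 RPM in Oct4-KD, against 1.46 and 1.186 RPM in siControl. By stage list, 488 members were in the 8-cell list alone and 449 in the 8-cell and morula lists alone.

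In width and place, members were like the other intergenic gained sites in most measures. Their median width was 210 bp (quartiles 150 and 250), against 210 bp (170 and 270) for sites not lowered. The widest were chr4:88287261-88287930 at 670 bp, with 0.598 and 1.301 RPM in Oct4-KD, against 2.069 and 1.927 RPM in siControl, and a pair of 490 bp. The nearest other 8-cell site was at a median of 11.6 kb from members and 11.2 kb from the others, and the nearest promoter-class 8-cell site at 50.4 and 53.1 kb. Of members, 453 had another 8-cell site within 10 kb (47.6%), against 1033 of the others (48.2%), and 191 had a promoter-class site within 10 kb (20.1%, 17.6 to 22.8), against 16.7% of the others (15.1 to 18.4).

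Members lay near each other about as often as other intergenic gained sites lay near members. Another member was within 10 kb of 124 members (13.0%, 11.0 to 15.3), and a member was within 10 kb of 276 sites not lowered (12.9%, 11.5 to 14.4). Where members had another gained site within 10 kb, the nearest one was itself lowered in 126 of 400 cases (31.5%, 27.0 to 36.3), against 27.5% for sites not lowered (24.7 to 30.5), and these intervals overlap. Joined at gaps of up to 10 kb, 828 members had no other member in their group, 55 groups held 2 members, 2 groups held 3 and 2 groups held 4. One group of 4, at chr5:115441741-115458710, had 15 reads in all in Oct4-KD and 59 in siControl, and all 4 of its sites were in the morula list. On the X chromosome, 5 members joined at gaps of up to 50 kb lay at chrX:32081441-32116250, with 5 reads in all in Oct4-KD and 22 in siControl, and 3 of them were in the morula list. None of those 5 had both Oct4-KD libraries below both siControl libraries.

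Members lay on 20 chromosomes. Chromosome 2 held the most, 86 of its 250 intergenic gained sites (34.4%). The X chromosome held 28 of 126 (22.2%, 15.3 to 30.5), against 30.8% over all chromosomes, and 6 of these 28 were in the morula list (21.4%, 8.30 to 41.0), against 48.7% of autosomal members (45.4 to 52.0). The 28 had a median of 1 read in Oct4-KD and 5 in siControl, against 2 and 9 at autosomal members, and were less deeply covered. Of intergenic gained sites not lowered, 58.7% on autosomes were in the morula list (56.6 to 60.9), against 57.8% over all chromosomes (55.7 to 59.9). Their share on the X chromosome alone was not analysed here, so a low share there is not shown to be particular to members.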

How the data were processed

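DNase-seq libraries were single-end, per the labels' protocols. Build mm9 and the tools Cufflinks 2.2.1, Bowtie 0.12.9 and TopHat2 2.0.6 are listed in the submitters' processing notes. The caller of the sites and its cut-off were not stated in the sources used here. The authors deposited site lists with coordinates and, for stage lists, a class, and a table of decreased sites that has, per the file headers, a value per library and a log2 fold change. These per-library values are deposited RPM, a unit inferred from their steps: 100% were whole multiples of 1 read within a tolerance of 0.1 reads. The deposited log2 fold runs siControl over Oct4-KD with 0.01 RPM added, and was recovered to within 0.000500. Starts count from 0 in the files and are printed with 1 added.

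Members and lists were chosen with earlier results of these data known. No test of Oct4-KD against siControl was run, limma and edgeR included, because that contrast chose the members. Stage lists share coordinates and were matched exactly, and gamete and pronuclear lists by an overlap of at least 1 bp (Python 3.11.15, checked with bedtools 2.31.1). Shares have exact Clopper-Pearson intervals at 95% confidence (scipy 1.17.1). Folds here use log2(RPM + 0.1), Oct4-KD over siControl. Functions were tested on simulated data. Named sites are from those of highest mean siControl level, largest and smallest fall, greatest width, most other lists, and largest ratio between libraries of a group, without chromosome 18. The sites of the 1-cell and 2-cell lists and the groups of neighbours were named after their values were seen. Leaving out each library, blocking by number, other overlaps, widths and pseudocounts were tried.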

Additional observations from a re-analysis of the deposited data

How the results depend on the processing

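Without each library in turn, the count of members whose Oct4-KD libraries lay below their siControl libraries was 615 to 912, the count past the deposited threshold 397 to 899, the median log2 fold -1.65 to -0.70 and the median level left 22.0% to 49.0%, with the weakest values without siControl 1. With each library set to 1 median level, 79 members had separated groups, against 575. That setting removes a difference shared by the members by its construction. Separated sites of the whole table were not counted in these settings. In the counts on deposited RPM, ties in reads between Oct4-KD 2 and siControl 2 could count as separated. The pseudocount set the median log2 fold as well, at -0.67 with 0.5 RPM and -1.65 with 0.01 RPM, against -1.26 with 0.1 RPM. Deviations of same-numbered libraries correlated at -0.02 over members and 0.01 over the table. With so few reads per site, this cannot show whether same-numbered libraries were handled together. With the replicate number as a block, 319 members passed within both numbers, against 952, and the median log2 fold was -1.23. The morula share was 63.1% at widths of 200 bp and over and 41.7% without members near another 8-cell site, against 47.9% in all, and sites not lowered then had 71.2% and 53.4%. The share with a gamete or pronuclear overlap was 9.38% at 200 bp and over (6.99 to 12.2), against 7.25% at all widths, and that of sites not lowered was 13.7% (11.8 to 15.7), so that the intervals then overlap. The counts without each library, the block on the threshold count, scaling within each group and autosomes alone were added after seeing the data. Depth limits each site, since the median member had 2 Oct4-KD reads.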
